A study of Mus musculus with 22 samples.

Results

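Replication-dependent histone genes were followed in 22 mouse livers, as the rows of the deposited RPKM table whose symbols begin with Hist1h, Hist2h, Hist3h or Hist4h. RPKM is a read number scaled to gene length and to library size. Members were chosen by symbol alone, which gave 66 members of 18716 rows, namely 6 H1, 17 H2a, 18 H2b, 12 H3 and 13 H4 genes. No value entered that choice, but the family was put forward with the differences between these livers known. Its fold changes, counts and adjusted p-values therefore describe the family and are no independent evidence of a direction.

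All livers carried the genotype label Fah-/-, named for the lost enzyme fumarylacetoacetate hydrolase, which completes the breakdown of tyrosine. There were 7 livers taken at day 0 and labelled as normal liver (D0). The other livers had received td-Hepatocytes and were taken at day 28 after withdrawal of NTBC, a drug that blocks tyrosine breakdown upstream of Fah, with 8 given vehicle and 7 given YC. The series asked whether YC acts on the transplanted cells through dedifferentiation. The sources used here do not give what YC stands for, the age of the animals or the genotype of the transplanted hepatocytes. The day 28 livers mix host and transplanted cells in unknown shares, and every liver mixes cell types. Fewer cells of a type and less RNA per cell therefore cannot be told apart.

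Core histones H2A, H2B, H3 and H4 form the spool around which DNA is wound, and H1 linker histones bind where DNA enters and leaves it. Most replication-dependent histone mRNAs are made in S phase, carry no introns and end just after a short stem-loop in place of a poly(A) tail. The protein Slbp binds that stem-loop, and the U7 particle with Lsm10 and Lsm11 directs the cut behind it. Some of these genes can also be read through to a later poly(A) site, which is known in differentiated cells and when stem-loop processing is impaired. The libraries were made from polyT-purified mRNA, per the labels' protocols. The values therefore count the fraction captured by polyT, which for this family can be a small and variable part of all its mRNA, and they do not measure a tail or a total histone mRNA level.

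The stem-loop was found after the stop codon in an annotated GENCODE M21 transcript (GRCm38, the mm10 build) for 46 of the 66 members, starting 21 to 58 bases past the stop. Sites of 5 abundant members, 1 per histone type, are shown because this element decides which 3′ end a histone mRNA receives. Capitals mark the arms that pair to form the stem.
Hist1h1c (H1): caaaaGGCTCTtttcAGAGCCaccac
Hist2h2aa1 (H2a): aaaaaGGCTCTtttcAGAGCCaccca
Hist1h2bb (H2b): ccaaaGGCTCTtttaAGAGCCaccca
Hist1h3e (H3): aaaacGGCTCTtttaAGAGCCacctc
Hist1h4h (H4): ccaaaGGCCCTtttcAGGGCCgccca
The arms GGCTCT and AGAGCC stood in all 34 matched sites of H1, H2a, H2b and H3 genes. None of the 12 matched H4 sites had them: 10 had GGCCCT with AGGGCC and 2 had GGTCCT with AGGACC.

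Annotated transcripts ran at least 100 bases past the stem-loop in 23 members and stopped sooner in another 23. The letters AATAAA, the usual poly(A) signal, stood after the stem-loop in 14 members. A further 4 members, all H2b genes (Hist1h2bc, Hist2h2be, Hist1h2bq and Hist1h2br), had an annotated 3′ end without a stem-loop match. Sequence outside annotated transcripts was not searched, so a stem-loop there could be missed, also in spliced members. In the remaining 16 the annotation ended within 48 bases of the stop codon, so the search there says nothing. Of the 66, 61 had a single annotated exon and 5 had a transcript with 2.

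Promoters of the 2 H1 genes with the highest mean level are shown because these were the linker histones with the largest differences described below. They are the 250 bases before the RefSeq start (GRCm38.p6), at chr13:23738557-23738806 on the plus strand and chr13:23622559-23622808 on the minus strand. Capitals mark the TATA box (TATAAA), the CCAAT box (CCAAT) and an element known from H1 promoters (AAACACA).
Hist1h1c: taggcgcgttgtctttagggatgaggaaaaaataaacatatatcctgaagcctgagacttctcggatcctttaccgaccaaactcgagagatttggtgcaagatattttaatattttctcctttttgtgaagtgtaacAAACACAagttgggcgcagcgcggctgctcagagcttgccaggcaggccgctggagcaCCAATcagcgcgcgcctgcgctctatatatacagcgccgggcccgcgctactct
Hist1h1e: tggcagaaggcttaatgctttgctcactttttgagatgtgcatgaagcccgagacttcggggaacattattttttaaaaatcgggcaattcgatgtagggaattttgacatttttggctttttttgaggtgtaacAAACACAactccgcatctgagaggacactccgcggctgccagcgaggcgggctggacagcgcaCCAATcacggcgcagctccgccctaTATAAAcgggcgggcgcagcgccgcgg
CCAAT began 54 and 52 bases before the start in Hist1h1c and Hist1h1e, and AAACACA began 112 and 115 bases before it. In RefSeq windows of 300 bases, searched on both strands, AAACACA stood in 5 of 6 H1 promoters, in 8 of the 61 members with a window, and in 7.20% of 32544 windows of all genes. ATTTGCAT, the octamer long described in H2B promoters, stood in 6 of 16 H2b windows, 6 of 17 H2a windows and no other member, against 1.75% of all windows. CCAAT stood in 52 of the 61 windows but in only 3 of the 12 H4 windows, against 37.4% of all windows, and TATAAA in 34, against 13.6%. A match is a description of letters and shows no binding.

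The members lay in 2 groups on chromosome 13 (mm10 21715763 to 22043676 with 23 genes, and 23531050 to 23934156 with 30), with 10 on chromosome 3, 2 on chromosome 11 and 1 on chromosome 6. Of the 66, 45 reached at least 0.5 RPKM in at least 7 libraries and were tested: 4 H1, 7 H2a, 10 H2b, 11 H3 and all 13 H4 genes. The 21 others had means of at most 0.471 RPKM and no single value above 2.28 RPKM, and 18 of them were H2a or H2b genes. Coding sequence was at least 98% identical to another member in 37 genes and 100% in 8, and 23 overlapped another annotated gene. The sources used here do not say how reads were divided between such copies or whether counting used strand. Levels of single near-identical members are therefore uncertain.

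Depth was estimated at 50100000 to 82800000 reads per library from the steps of low values, with the groups' ranges overlapping. Fah itself lay between 21.1 and 38.7 RPKM in D0 livers, between 271 and 542 RPKM in vehicle livers and between 31.5 and 407 RPKM in YC livers. The libraries labelled YC 6 and YC 7 were near the D0 range, at 41.3 and 31.5 RPKM. Transcripts of Y-linked genes were present in 0 of 7 D0, 8 of 8 vehicle and 3 of 7 YC livers (YC 1, YC 2 and YC 3), so for vehicle minus D0 the presence of Y transcripts and the treatment cannot be told apart. Since a liver given td-Hepatocytes mixes host and transplanted cells, these transcripts do not give the sex of its host. The labels number the replicates without calling them separate animals. The p-values then reflect only how far these samples spread, which may be technical.

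Summed over all 66 members, the family held 588 ± 41.4 RPKM in the 7 D0 livers, 477 ± 141 RPKM in the 8 vehicle livers and 924 ± 423 RPKM in the 7 YC livers (mean ± SD). The largest single contribution came from Hist1h2bc, an H2B gene, which alone made up 78.5 ± 1.68% of the family's sum in D0, 62.1 ± 5.14% in vehicle and 42.4 ± 4.42% in YC livers (SD). Without it the sums were 126 ± 13.5 RPKM in D0, 178 ± 49.2 in vehicle and 538 ± 251 in YC livers (SD). Hist1h2bc was thus the leading member in every group, with its smallest share in YC livers.

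**Figure D1:**
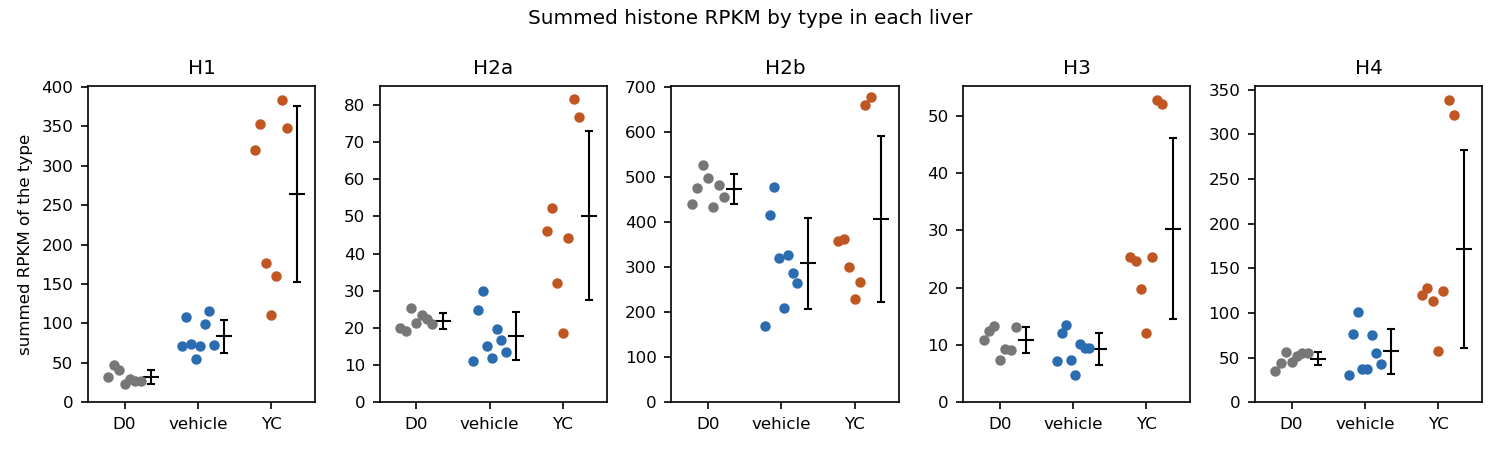
Summed RPKM of the members of each histone type in each liver, on linear axes from 0; points are livers in order of replicate number, and black bars give mean and SD of 7 D0, 8 vehicle and 7 YC livers. The H1, H2a, H3 and H4 means are highest in YC livers, while the H2b mean is highest in D0 livers.

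By type, the group mean of the summed level in YC livers was 3.16 times that of vehicle livers for H1, 2.81 times for H2a, 3.25 times for H3 and 3.01 times for H4. For H2b it was 1.32 times, and 1.97 times without Hist1h2bc. The H2b ratio rested on YC 6 and YC 7, at 659 and 677 RPKM, and was 0.982 without them. Between vehicle and D0 livers the ratio was 2.58 for H1, 0.819 for H2a, 0.653 for H2b, 0.860 for H3 and 1.16 for H4. Without Hist1h2bc that H2b ratio was 0.881. H1 was thus the only type whose mean differed by more than 2-fold between vehicle and D0 livers. The other ratios of YC to vehicle livers also rested in part on YC 6 and YC 7. Without them the ratio was 2.68 for H1, 2.17 for H2a, 2.30 for H3 and 1.90 for H4. The H4 sum was 339 and 321 RPKM in YC 6 and YC 7, against 57.7 to 128 RPKM in the other 5 YC livers.

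YC and vehicle livers were both taken at day 28, and their comparison describes how these groups of livers differed. In limma's fit across 12537 genes, 32 of the 45 tested members were called higher in YC livers (Benjamini-Hochberg adjusted p under 0.05) and 1 was called lower, against 44.6% and 6.14% of all genes tested. The median log2 fold change, on the log2(RPKM + 0.5) scale, was 1.07 for the 45 members and 0.31 for all genes. With median-ratio scaling, which took the median of all genes to 0.01, 27 members were called higher and 1 lower, against 18.2% and 16.7% of all genes, and the members' median was 0.84. With quantile normalization it was 25 and 2, against 18% and 16.8%. The calls covered 4 of 4 tested H1, 5 of 7 H2a, 5 of 10 H2b, 7 of 11 H3 and 11 of 13 H4 genes.

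**Figure D2:**
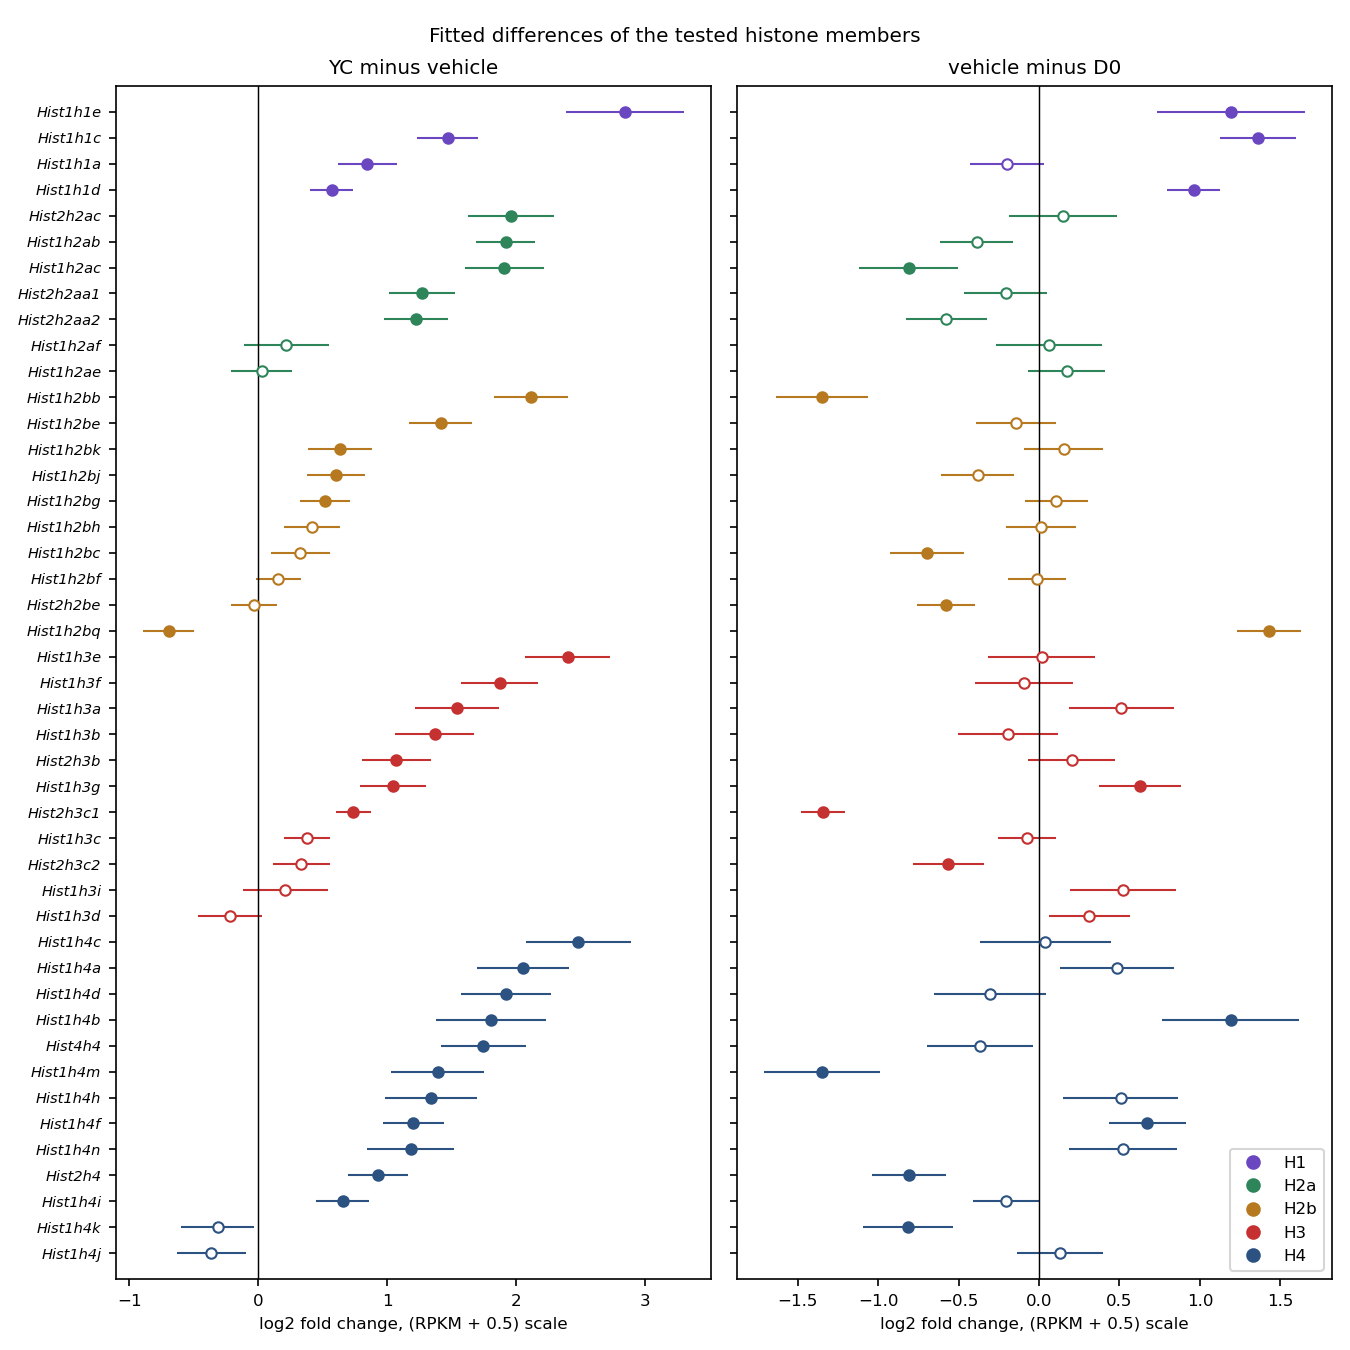
Fitted log2 fold changes of the 45 tested members, with bars of 1 SE, for YC minus vehicle (left) and vehicle minus D0 (right); colours mark histone types and filled points are called at adjusted p under 0.05. On the left most points lie right of 0 with Hist1h1e farthest at 2.85, while on the right they lie on both sides.

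Among the linker histones, Hist1h1c, a widely expressed somatic H1 gene, had the highest level. It ranged from 21.7 to 45.2 RPKM in D0 livers (median 27.5), from 53.3 to 110 in vehicle livers (median 69.4) and from 106 to 324 in YC livers (median 289). D0 lay below all vehicle livers, and only the YC 4 liver, at 106 RPKM, fell within the vehicle range. The fitted log2 difference was 1.47 ± 0.24 (SE) for YC minus vehicle and 1.36 ± 0.24 (SE) for vehicle minus D0, with limma adjusted p of 3.0e-05 and 3.8e-05.

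Hist1h1e, another somatic linker histone, showed the largest difference of all 45. Its values ran from 0.300 to 1.295 RPKM in D0 livers (median 0.913), from 0.587 to 4.55 in vehicle livers (median 2.92) and from 2.82 to 58.8 in YC livers (median 20.3). The YC 4 liver, at 2.82 RPKM, lay within the vehicle range, and the other 6 lay above it. YC minus vehicle was 2.85 ± 0.46 on the log2 scale (SE, limma adjusted p = 4.1e-05). Hist1h1e overlaps the annotated Hist1h2be gene on the same strand, so reads in the shared stretch could be counted for either gene. Hist1h1d was lower, at a median of 0.363 RPKM in D0, 1.17 in vehicle and 1.93 in YC livers. Its YC minus vehicle difference of 0.57 was not called with median-ratio scaling (0.30), with quantile normalization (0.22), without YC 6 and YC 7 (0.33) or among Y-bearing livers (0.37).

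**Figure D3:**
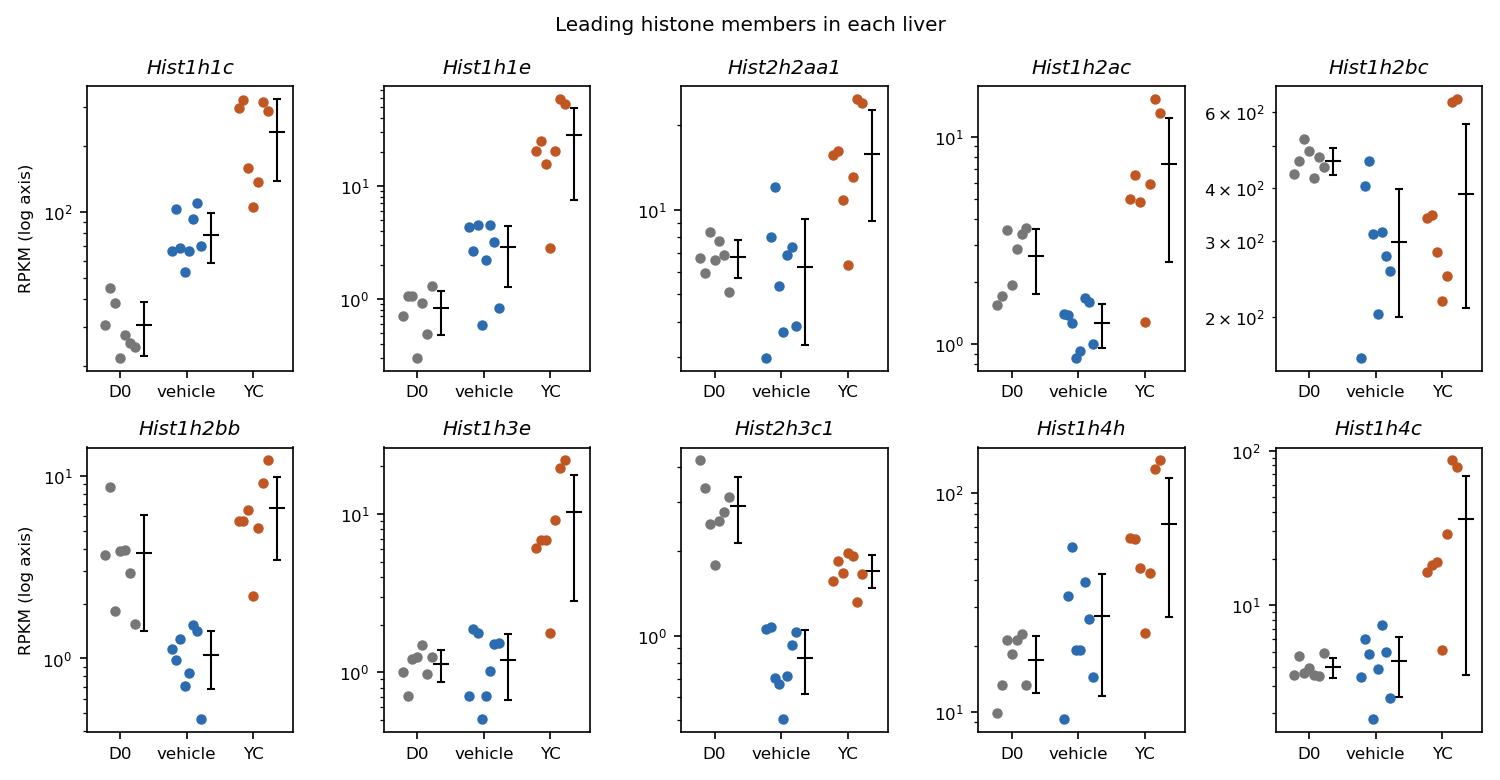
RPKM of 10 members in each liver on log axes; points are livers in order of replicate number, and black bars give mean and SD of 7 D0, 8 vehicle and 7 YC livers. YC 4 lies within the vehicle range in every panel except Hist1h2bb and Hist2h3c1, where all YC livers lie above all vehicle livers. For Hist1h2bc, Hist2h2aa1 and Hist1h4h, other YC livers lie within that range too.

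Among the H2A genes, Hist2h2aa1 and Hist2h2aa2 have identical coding sequences and gave near-equal values. Hist2h2aa1 had a median of 6.72 RPKM in D0, 6.12 in vehicle and 15.7 in YC livers, and Hist2h2aa2 had 8.40, 5.13 and 15.8 RPKM. Both were called higher in YC than in vehicle livers, by 1.27 ± 0.26 and 1.22 ± 0.25 on the log2 scale (SE).

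Hist1h2ac, whose start lies close to that of Hist1h2bc, ranged from 1.54 to 3.64 RPKM in D0 livers (median 2.89), from 0.857 to 1.67 in vehicle livers (median 1.32) and from 1.27 to 15.3 in YC livers (median 5.95). All YC livers except YC 4 lay above all vehicle livers. YC minus vehicle was 1.91 ± 0.31 (SE, limma adjusted p = 3.6e-05). Hist2h2ac had medians of 0.200 RPKM in D0, 0.277 in vehicle and 2.19 in YC livers, and a log2 difference of 1.97 ± 0.33 (SE) for YC minus vehicle.

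Hist1h2bc had the highest level of the family and a different pattern. It is annotated with 2 exons and 742 bases after its stop codon (mm10 chromosome 13, 23684199 to 23692908), and no stem-loop was found in that transcript. It ranged from 422 to 519 RPKM in D0 livers (median 461), from 161 to 460 in vehicle livers (median 294) and from 218 to 642 in YC livers (median 340). Vehicle livers were called lower than D0 livers, by -0.70 ± 0.23 on the log2 scale (SE, limma adjusted p = 0.012). YC minus vehicle was not called, at 0.33 ± 0.23 (SE, adjusted p = 0.24), and its sign turned with median-ratio scaling (-0.0206) and without YC 6 and YC 7 (-0.0062).

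Hist1h2bc and Hist1h2ac start 251 bases apart on opposite strands, and 12 such divergent pairs lay 176 to 660 bases apart. In 4 pairs both members were tested. For the log2 difference of YC minus vehicle, Hist1h2ac had 1.91 beside 0.33 for Hist1h2bc, and Hist2h2ac had 1.97 beside -0.03 for Hist2h2be. Hist1h3f had 1.87 beside 0.42 for Hist1h2bh, and Hist1h2bg had 0.52 beside 0.03 for Hist1h2ae. The difference within a pair was not tested.

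Hist1h2bb had its lowest level in vehicle livers. Its values ran from 1.55 to 8.68 RPKM in D0 livers (median 3.70), from 0.463 to 1.52 in vehicle livers (median 1.05) and from 2.21 to 12.2 in YC livers (median 5.64). No vehicle liver overlapped either other group. Vehicle minus D0 was -1.35 ± 0.29 and YC minus vehicle 2.12 ± 0.29 on the log2 scale (SE), with limma adjusted p of 0.00034 and 5.1e-06. Hist1h2be had a median of 1.18 RPKM in D0, 0.985 in vehicle and 3.44 in YC livers, with YC minus vehicle at 1.42 ± 0.25 (SE).

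Hist1h2bq was the only member called lower in YC than in vehicle livers. Its median was 0.416 RPKM in D0, 2.21 in vehicle and 1.01 in YC livers, and the vehicle and YC ranges overlapped. YC minus vehicle was -0.69 ± 0.20 on the log2 scale (SE), and -1.08 with quantile normalization. Its coding sequence is identical to that of Hist1h2br, which averaged 0.0475 RPKM, so the split of reads between the pair is uncertain.

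Among the H3 genes, Hist1h3e ranged from 0.706 to 1.48 RPKM in D0 livers (median 1.22), from 0.503 to 1.89 in vehicle livers (median 1.26) and from 1.76 to 21.8 in YC livers (median 6.86). The D0 and vehicle ranges overlapped throughout, and 6 of the 7 YC livers lay above both. YC minus vehicle was 2.40 ± 0.33 on the log2 scale (SE, limma adjusted p = 7.0e-06).

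Hist2h3c1 and Hist2h3c2 did not share that pattern. Hist2h3c1 had a median of 2.77 RPKM in D0, 0.819 in vehicle and 1.67 in YC livers, and no vehicle liver, at 0.501 to 1.07 RPKM, reached the lowest YC liver at 1.31 RPKM. Its log2 difference was -1.34 ± 0.14 for vehicle minus D0 and 0.74 ± 0.14 for YC minus vehicle (SE), the latter 0.49 after median-ratio scaling and 0.42 after quantile normalization. YC 6 was its lowest YC liver. Hist2h3c2 had medians of 2.55, 2.08 and 2.43 RPKM in D0, vehicle and YC livers, and its YC minus vehicle difference of 0.34 ± 0.22 (SE) was not called and turned to -0.0427 with quantile normalization.

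H4 had the most members called higher in YC than in vehicle livers, 11, and also the most tested members, 13. All 4 tested H1 genes were called higher as well, and 44.6% of all genes were. Hist1h4h had the highest H4 level, from 9.95 to 22.8 RPKM in D0 livers (median 18.4), from 9.25 to 56.7 in vehicle livers (median 22.9) and from 22.8 to 141 in YC livers (median 61.4). Its YC minus vehicle difference was 1.34 ± 0.36 on the log2 scale (SE, limma adjusted p = 0.0036), and 0.89 without YC 6 and YC 7. Hist1h4c ran from 3.49 to 4.88 RPKM in D0 livers (median 3.65), from 1.82 to 7.38 in vehicle livers (median 4.36) and from 5.09 to 86.2 in YC livers (median 18.9). Its difference was 2.48 ± 0.41 (SE, adjusted p = 4.3e-05).

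Hist1h4a was low in D0 livers, at 0.275 to 0.784 RPKM, and reached a median of 1.10 RPKM in vehicle and 6.70 in YC livers. Its YC minus vehicle difference was 2.06 ± 0.36 on the log2 scale (SE). Hist1h4i, at medians of 15.6, 12.96 and 19.2 RPKM in D0, vehicle and YC livers, had a difference of 0.66 ± 0.20 (SE) that lost its call in 5 of the alternative settings, at 0.32 to 0.43. Hist1h4m, identical in coding sequence to Hist1h4n, had medians of 3.46, 1.11 and 2.65 RPKM. Its difference was 1.39 ± 0.36 (SE), 0.92 with array weights, 0.86 without YC 6 and YC 7 and 0.86, not called, among Y-bearing livers.

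The comparison of vehicle with D0 livers covered engraftment, NTBC withdrawal and 28 days together. Here 7 of the 45 tested members were called higher and 9 lower, against 28.2% and 29.9% of all genes, and the members' median log2 difference was 0.01. Over all genes the median was 0.0049. With quantile normalization it was 5 higher and 11 lower, against 26% and 31.5%, and with median-ratio scaling 7 and 10, against 29.2% and 30.8%. Vehicle livers lay wholly above D0 livers in 3 members and wholly below in 2, against 11.2% and 11.7% of all genes. Of the 4 tested H1 genes, 3 were called higher (Hist1h1c, Hist1h1e and Hist1h1d). The H1e call, at 1.19 ± 0.46 (SE), was lost with a pseudocount of 1 (0.97) and when D0 4, D0 6 or vehicle 1, 3, 6 or 7 was left out (1.08 to 1.14). Of the 7 H2a genes 1 (Hist1h2ac, at -0.81 ± 0.31, SE) was called lower and none higher, and its call was lost without D0 3, D0 6, D0 7 or vehicle 4, at -0.76 to -0.74. Of the H3 genes 1 was called higher and 2 lower (Hist2h3c1 and Hist2h3c2), the latter lost without D0 2, D0 3, D0 7 or vehicle 1, 5 or 8, at -0.53 to -0.42. Further, of the H2b genes 3 were called lower and Hist1h2bq higher, by 1.43 ± 0.20 (SE). Of the H4 genes 2 were called higher and 3 lower.

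YC livers set against D0 livers use the same YC and D0 livers as the comparisons above. There 28 members were called higher and 3 lower, against 41.2% and 12.3% of all genes, with medians of 0.79 and 0.25. With median-ratio scaling it was 24 and 4, against 25.8% and 28.6%, and with quantile normalization 19 and 6, against 23.3% and 30%. Among livers without Y transcripts, the 7 D0 livers and YC 4 to YC 7 (a setting chosen after seeing the data), 26 members were called higher and 3 lower, against 32.7% and 9.12% of all genes. The Hist1h2ac and Hist1h2bb differences, at 1.21 and 0.78, were not called there. YC livers lay wholly above D0 livers in 12 members, against 19.4% of all genes, and wholly below in 0, against 4.17%. Hist1h1e was 4.04 ± 0.48, Hist1h1c 2.83 ± 0.24, Hist1h4c 2.52 ± 0.42 and Hist1h3e 2.42 ± 0.34 on the log2 scale (SE), and all 4 were among those 12. The group mean was highest in YC livers for 37 of the 45 members, in D0 livers for 6 and in vehicle livers for 2, against 54.3%, 26.7% and 19% of all genes tested.

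Spread among the YC livers was wide, and the same livers stood at its ends in most members. YC 6 and YC 7 were the 2 highest YC livers in 30 of the 45 members, against 28.6% of all genes, YC 4 was the lowest in 31, against 42.3%, and both held in 25, against 18.9%. YC livers lay wholly above vehicle livers in 2 members (Hist1h2bb and Hist2h3c1), against 6.52% of all genes. With YC 4 set aside it was 16, against 15.1%. That choice rests on the values themselves, since YC 4 was the lowest YC liver in most members, so the higher count is no separate result. YC livers lay wholly below vehicle livers in 0 members, against 0.558%, or 1.04% with YC 4 set aside. YC 4 itself lay within the vehicle range for 42 of the 45 members, against 72.3% of all genes.

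**Figure D4:**
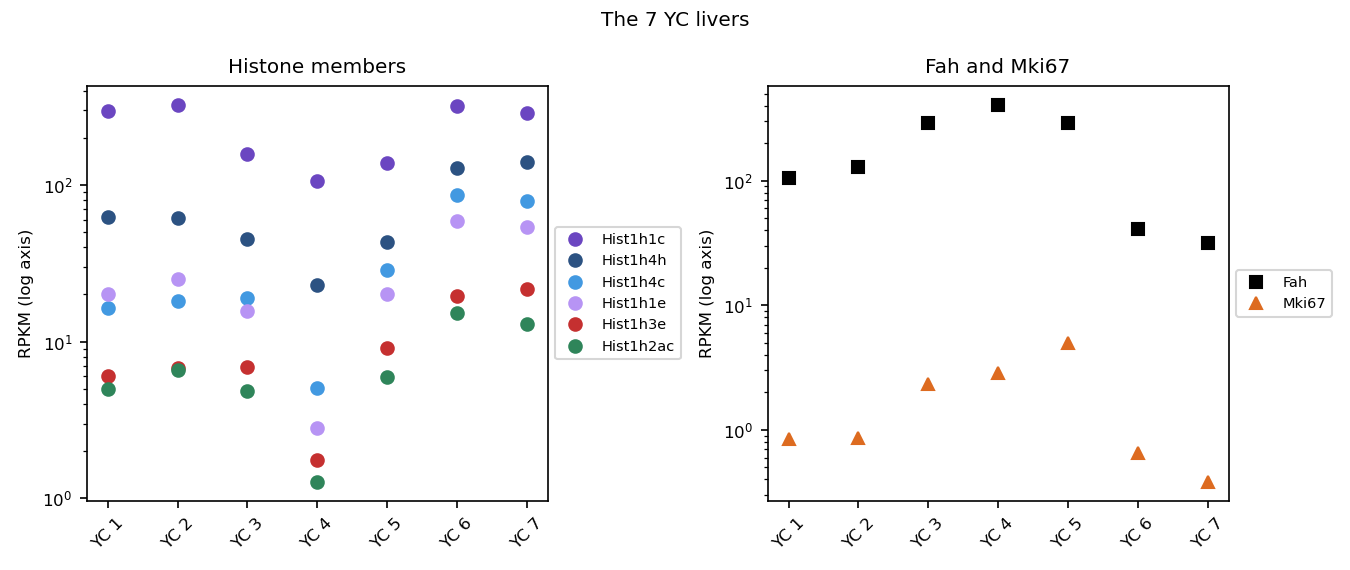
RPKM of 6 histone members (left) and of Fah and Mki67 (right) in each of the 7 YC livers, on log axes; each point is 1 liver. YC 4 has the lowest values of the 6 members and the highest Fah value, 407 RPKM, while YC 6 and YC 7 have the lowest Fah and Mki67 values.

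From YC 1 to YC 7, Hist1h1e measured 20.2, 25.0, 15.7, 2.82, 20.3, 58.8 and 53.6 RPKM. In the same livers Fah measured 105, 128, 290, 407, 291, 41.3 and 31.5 RPKM. Mki67, a marker of cycling cells, measured 0.839, 0.858, 2.32, 2.87, 4.97, 0.652 and 0.382 RPKM. The 2 livers with the most histone reads were thus the 2 with the least Fah and Mki67. Hepatocyte markers summed to 38999 and 37520 RPKM in them and to between 48972 and 69566 RPKM in the other 5. The part of these differences in the histone values was not tested, but without YC 6 and YC 7 27 members were called higher in YC than in vehicle livers and 1 lower, against 44.1% and 7.2% of all genes. Without YC 4 as well, a setting chosen after seeing the data, it was 28 and 1, against 47.2% and 7.12%. Among the livers with Y transcripts (YC 1 to YC 3 and the 8 vehicle livers) it was 25 and 1, against 37.5% and 6.05%.

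Cell markers moved between the groups too. Of all genes, 44.6% were called higher in YC than in vehicle livers and 6.14% lower. Of 12 tested neutrophil and precursor markers, 8 were called higher in YC than in vehicle livers and none lower, with summed levels of 9.19 to 60.1 RPKM in D0, 71.9 to 341 in vehicle and 262 to 856 in YC livers. Of 9 lymphocyte markers 5 were called lower and none higher (6.96 to 18.1, 12.0 to 43.1 and 6.98 to 19.9 RPKM), and of 12 macrophage markers 3 were called lower and none higher (217 to 439, 843 to 2659 and 574 to 1512 RPKM). Of 8 tested erythroid markers 1 was called higher and 2 lower (82.0 to 192, 95.5 to 1276 and 31.2 to 496 RPKM). Hepatocyte markers were present in every liver, with 1 of 10 called higher and 5 lower, and 6 of 9 biliary and fetal hepatocyte markers were called higher. With median-ratio scaling, the counts of higher and lower genes were 6 and 0 for neutrophil, 0 and 7 for lymphocyte and 0 and 7 for macrophage markers. They were 1 and 2 for erythroid, 0 and 5 for hepatocyte and 4 and 0 for biliary and fetal hepatocyte markers. The shares of all genes with that scaling were 18.2% and 16.7%. The lymphocyte count was 3 without YC 2, and the macrophage count was 5 without vehicle 8, YC 6 or YC 7 and 7 without both of those YC livers. The erythroid count of lower genes was 1 without vehicle 3, 5 or 7 or YC 1, 2, 6 or 7. No marker of these lists was at 0 in all livers, and their part in the histone values was not tested.

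Genes of S phase and mitosis were set beside the histones, since most histone mRNA is made during DNA synthesis. Of 37 tested genes of DNA synthesis, 12 were called higher in YC than in vehicle livers and 4 lower. The shares of all genes were 44.6% and 6.14%. Without YC 5, 7 were called higher, and without vehicle 2 or without YC 1, 2 were called lower. With median-ratio scaling 4 were called higher and 6 lower, against 18.2% and 16.7% of all genes. Mcm2, a subunit of the replicative helicase, measured 4.20 ± 1.47 RPKM in vehicle and 11.0 ± 2.70 in YC livers (SD), a log2 difference of 1.33 ± 0.19 (SE). Of 14 tested mitosis markers 2 were called higher and 2 lower, or none and 6 with median-ratio scaling, and 0 to 2 higher and 1 to 4 lower when single livers were left out. In vehicle minus D0, 14 of 14 mitosis markers and 21 of 37 DNA synthesis genes were called higher, where 7 histone members were. The share of all genes called higher there was 28.2%.

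A list of genes for transcription and 3′ end formation of histone mRNA had 29 tested genes. It also holds general cleavage, poly(A) and mRNA decay factors, so it is not specific to histone mRNA. Of the 29, 21 were called higher in YC than in vehicle livers and 1 lower, against 44.6% and 6.14% of all genes. With median-ratio scaling it was 6 and 2, where 18.2% and 16.7% of all genes were called, so the higher share was then near that of all genes. For vehicle minus D0, 2 were called higher and 17 lower, against 28.2% and 29.9% of all genes. For YC minus D0 it was 5 higher and 6 lower, against 41.2% and 12.3%. Slbp, the stem-loop binding protein, measured 15.8 ± 2.06 RPKM in D0, 12.4 ± 2.89 in vehicle and 14.9 ± 3.57 in YC livers (SD), with an uncalled log2 difference of 0.26 ± 0.15 (SE) for YC minus vehicle. Lsm11 of the U7 particle was called higher, by 0.41 ± 0.10, as were Npat, a cofactor of histone gene transcription, by 0.50 ± 0.15, and Casp8ap2, by 0.55 ± 0.18 (SE). The smallest adjusted p belonged to Cpsf2, a cleavage factor subunit, at 0.91 ± 0.15 (SE). For vehicle minus D0 these 5 genes were called lower, Slbp by -0.36, Lsm11 by -0.24, Npat by -0.60, Casp8ap2 by -0.64 and Cpsf2 by -0.62, and none of the 5 was called for YC minus D0. Lsm10, the partner of Lsm11, was the gene called lower in YC than in vehicle livers, and it is named after its value was seen.

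Histone chaperones, which carry histones to DNA, had 15 of 22 tested genes called higher in YC than in vehicle livers and none lower. The shares of all genes were 44.6% and 6.14%. With median-ratio scaling it was 7 and none, against 18.2% and 16.7% of all genes. For vehicle minus D0, 3 were called higher and 8 lower, against 28.2% and 29.9% of all genes. For YC minus D0 it was 9 higher and 3 lower, against 41.2% and 12.3%. Hira, which deposits the replacement histone H3.3, measured 8.60 ± 0.646 RPKM in D0, 3.45 ± 0.663 in vehicle and 8.37 ± 2.18 in YC livers (SD). Its log2 difference was -1.22 ± 0.14 for vehicle minus D0, called lower, and -0.07 ± 0.14 (SE), not called, for YC minus D0. Rbbp7, a histone-binding subunit of several chromatin complexes, measured 49.5 ± 3.48 RPKM in D0, 47.9 ± 7.79 in vehicle and 182 ± 81.8 in YC livers (SD). Rbbp4, its close relative, had a log2 difference of 0.06 ± 0.15 (SE) and was not called.

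Most replacement histone variants are also made outside S phase, from ordinary polyadenylated mRNAs. Of 12 tested, 1 was called higher in YC than in vehicle livers and 3 lower, against 44.6% and 6.14% of all genes. Their median log2 difference was -0.12, and that of all genes was 0.31. With median-ratio scaling 1 was called higher and 6 lower, against 18.2% and 16.7% of all genes. Without that scaling, 2 were called higher when vehicle 3 was left out and 3 when YC 4 was. H2afy2 was called higher, by 0.60 ± 0.12, and H1fx, Cenpa and H2afv lower, by -1.18 ± 0.37, -0.57 ± 0.23 and -0.55 ± 0.17 (SE). H3f3a, H3f3b, H2afz and H1f0 were not called, at -0.40, 0.27, -0.14 and -0.31. The difference between this list and the replication-dependent members was not tested.

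By annotated 3′ end, members with a stem-loop and at least 100 further bases had 15 of 20 tested genes called higher in YC than in vehicle livers and none lower, with a median of 1.17 on the log2 scale, against 44.6% and 6.14% of all genes tested. Those with a stem-loop and a shorter tail had 15 of 17 and none, with a median of 1.27. Of the 3 tested members with an annotated 3′ end but no stem-loop match, Hist1h2bc and Hist2h2be were not called and Hist1h2bq was called lower. Since only annotated transcripts were searched, members of this class may still have a stem-loop outside them. Where the annotation ended near the stop codon, 2 of 5 were called higher, a share near that of all genes. The difference between these classes was not tested, and gene lengths of members with long tails depend on the authors' annotation.

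**Figure D5:**
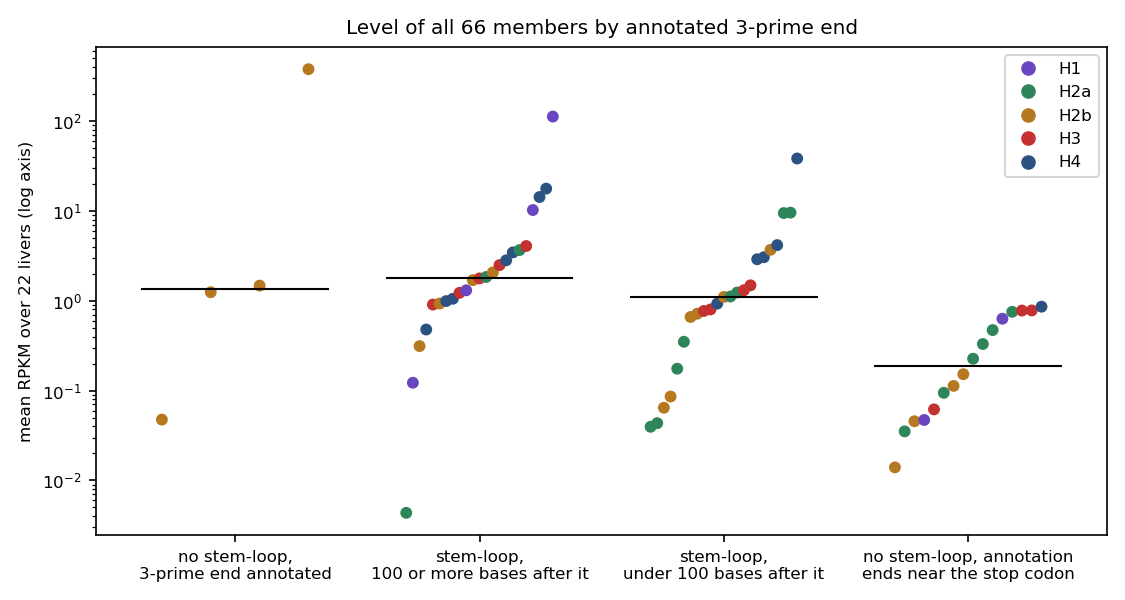
Mean RPKM over 22 livers of all 66 members by annotated 3′ end, on a log axis; each point is 1 gene, coloured by histone type, and black lines are class medians. Hist1h2bc, at 379 RPKM, is the highest point, in the class with an annotated 3′ end but no stem-loop match. Members whose annotation ends near the stop codon stay below 1 RPKM.

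On chromosome 13, the group of 30 members had 20 of 27 tested genes called higher in YC than in vehicle livers and none lower, with a median log2 difference of 1.37, against 44.6% and 6.14% of all genes tested. The group of 23 members had 5 of 9 called higher, close to the share of all genes, and 1 lower, with a median of 0.60. On chromosome 3, 6 of 8 tested members were called higher, and the single gene on chromosome 6, Hist4h4, was called higher by 1.75 ± 0.33 (SE). The difference between the groups was not tested.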

How the data were processed

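Liver RNA of 22 samples was purified with polyT, per the labels' protocols. The authors deposited 1 table of RPKM values, with 1 column per library; per the submitters' processing notes, TopHat 1.4.1 and Cufflinks 1.3.0 were used with mm10. The sources used here do not give annotation, filters, strand or handling of shared reads. Groups came from the treatment and title labels.

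Values were fitted as log2(RPKM + 0.5) with limma 3.58.1 in R 4.3.3 (all libraries, 3 groups, trend and robust), over 12537 genes of at least 0.5 RPKM in at least 7 libraries, two-sided, with Benjamini-Hochberg adjustment over all genes; the code was tested on simulated data. This scale understates changes of low genes. Between 11.4 and 36.1% of low values came out as whole reads (tolerance 0.02), too few for a count test. No library pair was identical (0 pairs).

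Members and lists were chosen with earlier results of these data known. Values are given for the 3 members of highest mean per type and for the largest called differences (6 each way for YC minus vehicle, 3 each way for vehicle minus D0), 19 members in all. From the lists, the called gene with the smallest adjusted p, the most abundant uncalled gene, Slbp, Npat, Casp8ap2, Lsm11 and the replacement variants could be named; Hist2h2be, Hist1h3f, Hist1h2bh, Hist1h2bg, Hist1h2ae, Hist4h4, Lsm10 and Rbbp7 were named after their values were seen. Motifs and stem-loops were searched by script. Alternatives covered pseudocount, filter, scaling, weights, block and left-out libraries.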

Additional observations from a re-analysis of the deposited data

Results flagged for a closer look

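Single livers stood apart from their own group in 3 of 72 groups of values checked by the gap of the extreme liver to its nearest neighbour over the group's range, and chance alone gives about 1 in 20. D0 2 had 8.68 RPKM of Hist1h2bb against 1.55 to 3.91 in the other D0 livers, with a D0 mean of 2.96 without it and 3.78 with it. Vehicle 3 had 2.34 RPKM of Hist1h2be against 0.548 to 1.27 in the other vehicle livers. YC 6 had 16.73 RPKM of Hist1h4m against 1.87 to 5.37 in the other YC livers, and the YC mean was 2.79 RPKM without it and 4.78 with it.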

How the results depend on the processing

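For YC minus vehicle, 25 to 35 members were called higher over the alternatives and 29 to 33 with single livers left out, and for YC minus D0 19 to 33. Between the main fit and quantile normalization, the share of all genes called higher went from 44.6% to 18% for YC minus vehicle. For YC minus D0 it went from 41.2% to 23.3%. The member counts alone therefore do not show how stable the result is. Members called lower became 2 and 6 with quantile normalization, against 16.8% and 30% of all genes. The members' median for YC minus vehicle was 0.56 without a filter and 1.39 for means of at least 1 RPKM, and for YC minus D0 1.16 with a pseudocount of 0.1, 1.38 for means of at least 1 RPKM and 0.39 with quantile normalization. As log2 ratios of summed levels, H3 for YC minus D0 was 0.86 with quantile normalization, and without YC 6 and YC 7 H4 was 0.93 for YC minus vehicle and 1.15 for YC minus D0. The sign of Hist1h2bc for YC minus vehicle turned with median-ratio scaling (-0.0206) and without YC 6 and YC 7 (-0.0062), and that of Hist2h3c2 with quantile normalization (-0.0427); the cause was not tested. Same-numbered livers did not vary together (correlations of -0.386 to 0.214 over 7 pairs of YC and vehicle livers, 2 of them over 0.1). The labels do not say what the numbers mean, and weak correlations cannot show that the livers were unpaired. With the replicate block 31 members were called higher and 1 lower for YC minus vehicle. It was 7 and 8 for vehicle minus D0 and 27 and 3 for YC minus D0. The share of all genes called with the block is not given here. Livers with Y transcripts could be compared for YC minus vehicle only, with 25 called higher and 1 lower, against 37.5% and 6.05% of all genes. Livers without them could be compared for YC minus D0 only, with 26 and 3, against 32.7% and 9.12%. The latter setting, and leaving out YC 4, YC 6 and YC 7 together, were chosen after seeing the data. Hist2h3c2 for vehicle minus D0 lost its call with the block, at -0.51. RPKM without counts limits what can be said of members near 0.5 RPKM.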
